A study of Mus musculus with 8 samples.

Results

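The 41 genes described here are fibroblast and matrix genes other than collagens. Most encode matrix glycoproteins, the enzymes that process and crosslink the matrix, or proteases and their inhibitors. Others encode markers and growth factor receptors of fibroblasts, or secreted signals and enzymes of other kinds. The genes were taken by mouse symbol from the 47069 Ensembl genes of the deposited tables, and all 41 were matched. The list was chosen with earlier results of these data known. The RNA came from mouse embryonic stem (ES) cells of strain C57BL/6, in 4 groups of 2 libraries by the labels: wild type (WT), Pcgf3 knockout (Pcgf3KO), Pcgf5 knockout (Pcgf5KO) and double knockout (DKO) of both genes. The knockouts were made with Cas9. The labels do not give the number of clones, and nothing in them says that the 2 libraries of a group came from separate cultures, so p-values measure only the spread between these libraries. All groups were grown in serum with leukemia inhibitory factor on embryonic fibroblasts whose division had been stopped with mitomycin-C. These feeder cells make matrix, so each member can be read from ES cells, from feeders or from both, and in RNA of a whole culture fewer cells of a type and less RNA per cell cannot be told apart.

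Pcgf3 and Pcgf5 are RING finger subunits of variant Polycomb repressive complex 1, which places ubiquitin on histone H2A. Fibroblasts secrete fibronectin, fibrillins, fibulins and proteoglycans around collagen fibres. Bmp1 trims procollagen, lysyl oxidases crosslink collagen and elastin, and Mmp and Adamts proteases cut matrix proteins under the control of Timp inhibitors. ES cells and the extraembryonic endoderm cells that can arise beside them also secrete matrix, above all Sparc, fibronectin and basement membrane proteins.

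The 7 complete libraries held 12652616 to 19923964 counts. The table of WT replicate 1 ends early, after 8093 genes, and lists 11 of the 41 members. Differences were therefore tested in 7 libraries, where WT is the single library WT replicate 2 and is assumed to vary like the other groups, and again in all 8 libraries for those 11 members. Levels are counts scaled to library size (CPM, with TMM), and CPM in the 8-library fit are relative to the listed genes only, so they are not on the scale of the others. Pcgf3 stood at 110 CPM in the WT library, 66.1 and 60.5 in Pcgf3KO, 92.3 and 94.1 in Pcgf5KO, with 86.6 and 67.2 in DKO. Pcgf5 stood at 20.7 CPM in the WT library, 17.3 and 17.4 in Pcgf3KO, 12.3 and 9.06 in Pcgf5KO, then 13.5 and 13.9 in DKO. Neither transcript was lost, and the edited positions are not given in the labels, so these levels do not check the edits.

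Among 20 feeder fibroblast markers, none of them a member, 8 were under 1 CPM in every library: Twist2, Prrx1, Cdh11, S100a4, Meox1, Tcf21, Ddr2 and Islr. S100a4 had 0 counts in all 7 libraries. Col3a1 reached at most 1.14 CPM, and the marker collagens Col1a1 and Col1a2 at most 16.2 and 6.15 CPM. Members known from fibroblasts ranged widely, with medians over the 7 libraries of 1.01 CPM for the proteoglycan Dcn, 0.391 for Lum and 0.118 for Postn, but 17.8 for Thy1, 51.2 for Fbln1 and 996 for Fn1. The summed level of the 20 markers was 196 CPM in the WT library, 156 and 168 in Pcgf3KO, 146 and 158 in Pcgf5KO, with 97.9 and 118 in DKO. Other lists moved as well: the summed level of 16 primitive and parietal endoderm genes was 650 CPM in WT and 340 to 447 in the 6 edited libraries, with 5 genes under 1 CPM in every library. That of 10 mesoderm genes was 110 CPM in WT and 38.2 to 77.2 in the edited libraries, with 3 genes under 1 CPM in every library. That of 14 ES cell genes was 3590 CPM in WT and 3840 to 4390 in the edited libraries. These sums differed between WT and the edited libraries. Their part in the results against WT was not tested beyond the scaling to feeder markers given below.

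The sequence upstream of 2 genes is shown because Csf1 and Serpinf1 were called in all 3 knockouts against WT, in opposite directions, and have an entry in the RefSeq promoter table (GRCm38.p6, 23 of the 41 members matched). Each is the part of the 250 bases before the RefSeq start that also lies before the deposited gene start, written 5′ to 3′ on the gene's strand, with CG dinucleotides in capitals. The Csf1 stretch is chr3:107760470-107760719 on the minus strand and holds 10 CG in 250 bases. The Serpinf1 stretch is chr11:75422702-75422873 on the minus strand and holds 1 CG in 172 bases.
Csf1: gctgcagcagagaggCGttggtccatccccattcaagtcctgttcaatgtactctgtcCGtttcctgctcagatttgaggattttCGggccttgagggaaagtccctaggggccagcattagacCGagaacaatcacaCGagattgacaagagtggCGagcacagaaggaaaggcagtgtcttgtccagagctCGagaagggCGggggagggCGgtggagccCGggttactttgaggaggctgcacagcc
Serpinf1: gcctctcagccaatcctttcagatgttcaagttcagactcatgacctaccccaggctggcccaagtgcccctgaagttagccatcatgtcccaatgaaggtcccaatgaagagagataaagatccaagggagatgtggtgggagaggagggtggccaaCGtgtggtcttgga
Over windows of 250 bases the median was 8 CG for the 23 members and 6 for all 32851 windows of the table. Searched on both strands, the E-box CACGTG was in the window of 1 member, Fbln1, and in 6.02% of all windows. The AP-1 motif TGANTCA was in that of Tnfaip6 alone and in 6.75% of all windows. TATAAA was in those of Adamts1, Postn and Tnc and in 12.4% of all windows. None of these 3 motifs contains another. No promoter sequence was used for Adamts4, Adamts5, Adamts8, Bmp1, Dcn, Eln, Fbn2, Fn1, Has2, Lox, Loxl1, Loxl2, Loxl3, Lum, Mfap5, Mmp2, Pdgfrb and Thy1.

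Divided by exon length, the members spanned a wide range of levels. Sparc, a secreted protein that binds collagen and calcium, was the highest, with a median of 208 CPM per kilobase over the 7 libraries. Fibronectin (Fn1) followed at 85.2, the follistatin-like protein Fstl1 at 41.8, Timp1 at 30.6, Pcolce at 29.5, Fbln1 at 11.7 and Serpinf1 at 10. Timp1 and Pcolce are neighbours in this order whose libraries overlap. At the low end stood Adamts5 with 0.0415, Tnc with 0.0778 and Pdgfra with 0.0886 CPM per kilobase, and Postn with 0.0136, which had 0 to 6 counts per library and did not pass the filter on low counts. The other 40 members were tested. Sparc and Fstl1 were not called in any comparison of the 7-library fit. Both were called higher in DKO against WT relative to feeder markers, as were 74.3% of all genes. Sparc differed from WT by 0.07, -0.05 and -0.20 on the log2 scale in Pcgf3KO, Pcgf5KO and DKO, and Fstl1 by -0.31, -0.10 and -0.11. Fn1 is described with the adhesive proteins.

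**Figure D1:**
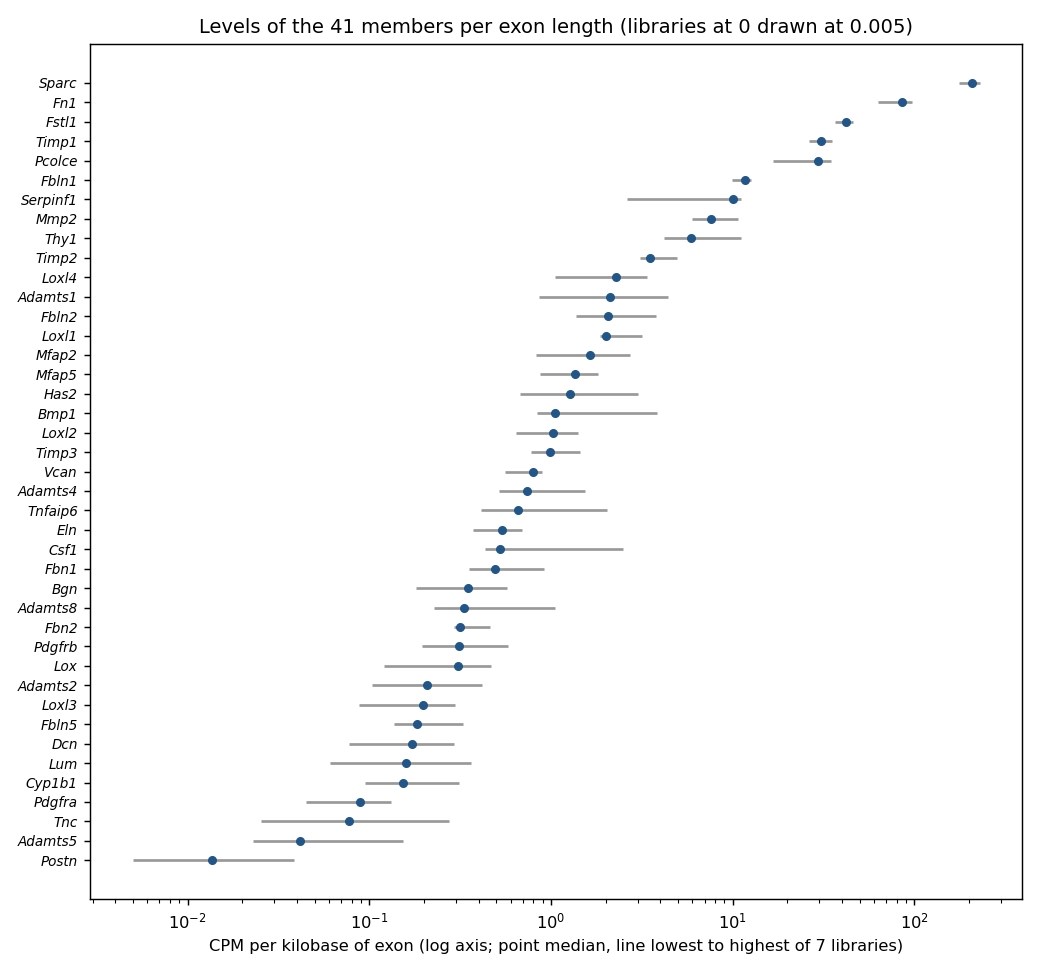
Level of each of the 41 members in CPM per kilobase of exon (log axis), as the median (point) and the range (line) over 7 libraries. Sparc, at 208, and Fn1, at 85.2, lie far above the fibroblast proteoglycans Dcn and Lum and above Postn, at 0.0136.

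In Pcgf3KO 1 member rose and 7 fell against WT, of 40 tested (edgeR's quasi-likelihood test, called where p adjusted over every gene tested reached 0.05 or less). Calls are those of this 7-library fit unless both WT libraries or the scale relative to feeder markers are named. Of all 15669 genes tested, 1.08% were called higher and 1.28% lower. In Pcgf5KO 1 member rose and 4 fell, beside 1.31% higher and 1.68% lower of all genes. In DKO 1 member rose and 8 fell, beside 1.33% higher and 1.89% lower of all genes. The median member differed from WT by -0.65, -0.50 and -0.45 on the log2 scale, and the median of all genes by 0.00 to 0.01. Csf1, Bmp1 and Adamts8 were called lower and Serpinf1 was called higher in each of the 3 comparisons, which share the WT library. Of 40 members, 22 were lower in all 6 edited libraries than in the WT library and 1, Serpinf1, was higher in all 6. Of all genes 19.5% lay below the WT library in this way and 18.8% above it. In the next counts, with 1 library left out, the share of all genes called moved as well. It was smaller without a single-knockout library and far larger without a DKO library, so the counts are not a result about the members alone. With either Pcgf3KO library left out, the Pcgf3KO comparison called 2 members, Csf1 and Serpinf1, and with either Pcgf5KO library left out 3, these and Bmp1. With either DKO library left out, it called more members and also far more of all genes. In the Pcgf5KO comparison Serpinf1 was the only member called with either Pcgf5KO library left out. Serpinf1, Csf1 and Bmp1 were called there with either Pcgf3KO library left out. With either DKO library left out, more members and far more of all genes were called. In the DKO comparison Csf1, Serpinf1, Has2, Adamts1 and Loxl4 were the members called when any 1 single-knockout library was left out. Without either DKO library, more members and far more of all genes were called there.

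**Figure D2:**
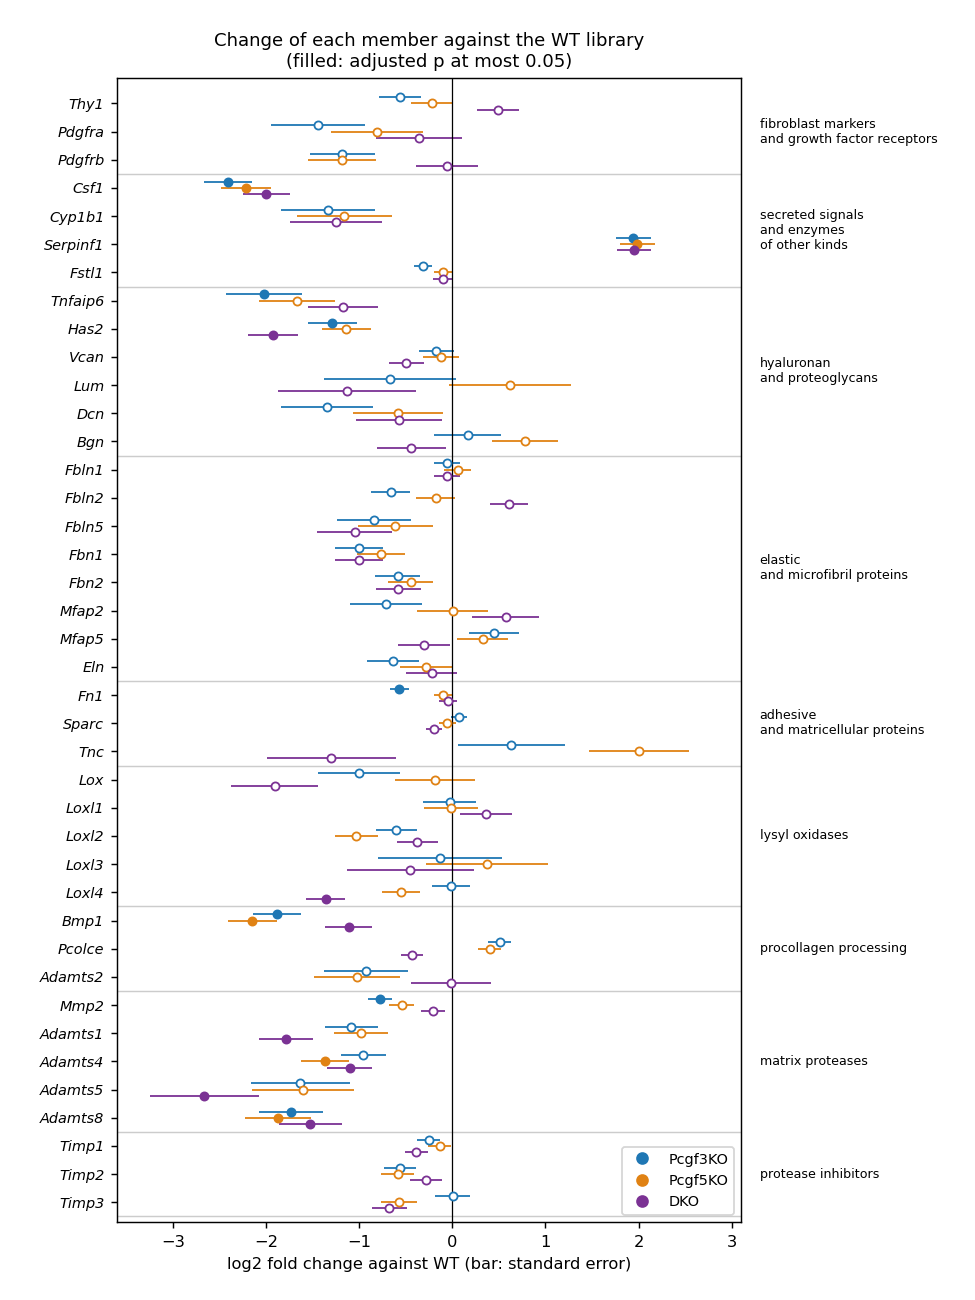
log2 fold change of each of the 40 tested members against the WT library, grouped by role, with its standard error (bar), in Pcgf3KO (blue), Pcgf5KO (orange) and DKO (purple). Filled points passed an adjusted p of 0.05: Serpinf1 lies near 2 in all 3 knockouts, and Csf1, Bmp1 and Adamts8 lie below 0 in all 3.

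Among secreted signals, Csf1 fell in every knockout. Csf1 encodes macrophage colony-stimulating factor, which mesenchymal cells secrete to sustain macrophages (ENSMUSG00000014599, chromosome 3, 107741048 to 107760469, mm10). It stood at 13.2 CPM in the WT library, 2.67 and 2.29 in Pcgf3KO, 2.78 and 2.91 in Pcgf5KO, then 2.63 and 3.95 in DKO. All 6 edited libraries lay far below WT and close to each other. The fold was 5.30 lower in Pcgf3KO (log2 -2.41, SE 0.26, edgeR adjusted p = 0.0022), 4.64 lower in Pcgf5KO (-2.21, SE 0.26, adjusted p = 0.00352) and 3.99 lower in DKO (-2.0, SE 0.25, adjusted p = 0.00383). With both WT libraries, at 67.4 and 74.5 CPM of the listed genes against 13.0 to 22.4 in the edited libraries, the log2 differences were -2.33, -2.15 and -1.92 (SE 0.22, 0.22 and 0.21), and all 3 were called. These 8-library calls held when any library was left out, and the 7-library call in Pcgf5KO was lost with either Pcgf5KO library left out.

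Serpinf1 rose in every knockout. It encodes pigment epithelium-derived factor, a secreted serpin that inhibits blood vessel growth (ENSMUSG00000000753, chromosome 11, 75409769 to 75422701). It stood at 6.15 CPM in the WT library, 23.8 and 23.6 in Pcgf3KO, 25.2 and 23.6 in Pcgf5KO, with 21.3 and 26.3 in DKO. The edited libraries did not overlap with WT, and those of the 3 genotypes overlapped each other. The fold was 3.85 in Pcgf3KO (log2 1.94, SE 0.18, edgeR adjusted p = 0.00124), 3.97 in Pcgf5KO (1.99, SE 0.19, adjusted p = 0.00122) and 3.87 in DKO (1.95, SE 0.18, adjusted p = 0.000993). These calls held when any edited library was left out, but the gene is not listed in WT replicate 1, so the WT side rests on 1 library. The hydroxylase gene Cyp1b1 stood at 1.82 CPM in WT and 0.554 to 0.947 in the edited libraries and was not called in 7 libraries. In all 8 libraries it was called lower in Pcgf3KO (log2 -1.65, SE 0.41, adjusted p = 0.0414) and DKO (-1.56, SE 0.40, adjusted p = 0.0384), calls that were lost with DESeq2 and with either WT library or any 1 single-knockout library left out, the DKO call also without DKO replicate 1.

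**Figure D3:**
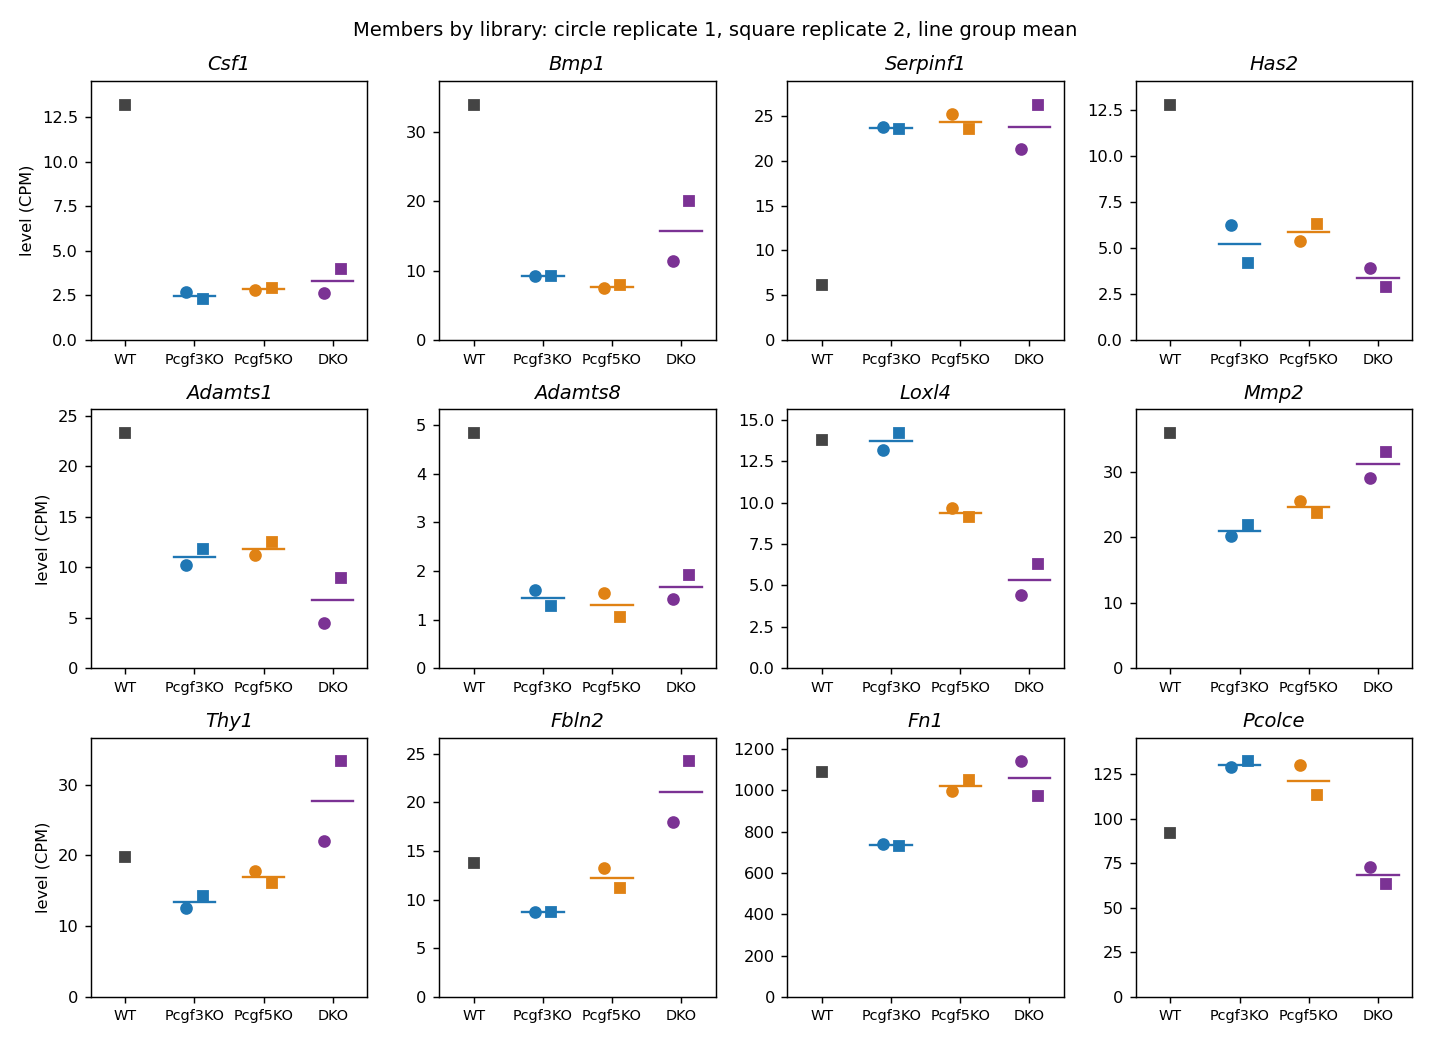
Level in CPM (linear axes from 0) of 12 members in each of 7 libraries, with the mean of each edited group as a line. Serpinf1 rises from 6.15 in WT to 21.3 or more in all edited libraries, Csf1, Bmp1 and Has2 lie below WT in all of them, and Fbln2, Thy1 and Pcolce separate DKO from the single knockouts.

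The 3 procollagen processing genes did not move together. Bmp1 encodes the protease that removes the C-terminal propeptide of fibrillar procollagen (ENSMUSG00000022098, chromosome 14, 70474557 to 70520260). It stood at 34.0 CPM in the WT library, 9.27 and 9.23 in Pcgf3KO, 7.46 and 7.93 in Pcgf5KO, then 11.4 and 20 in DKO. All edited libraries were below WT, and the DKO libraries differed most from each other. The log2 difference from WT was -1.88 in Pcgf3KO (SE 0.26, edgeR adjusted p = 0.00743), -2.15 in Pcgf5KO (SE 0.27, adjusted p = 0.00429) and -1.11 in DKO (SE 0.25, adjusted p = 0.0471). With both WT libraries, at 166 and 192 CPM of the listed genes, it was called in Pcgf3KO, Pcgf5KO and DKO, with log2 differences of -1.77, -2.05 and -1.01. In 7 libraries the Pcgf3KO call was lost with either Pcgf3KO library left out and the Pcgf5KO call with either Pcgf5KO library left out. The DKO call was lost in 7 libraries when any 1 single-knockout library was left out and in 8 with either WT library left out.

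Pcolce encodes the protein that enhances the activity of Bmp1 on procollagen. It stood at 91.8 CPM in the WT library, 129 and 132 in Pcgf3KO, 130 and 113 in Pcgf5KO, with 72.8 and 63.5 in DKO. The single knockouts lay above WT and DKO below it, and none of these differences was called. DKO differed from Pcgf3KO by -0.94 (SE 0.10, edgeR adjusted p = 0.00328) and from Pcgf5KO by -0.83 (SE 0.10, adjusted p = 0.0112) on the log2 scale. The first call was lost with either Pcgf3KO library left out and the second when any 1 single-knockout library was left out. Adamts2, which removes the N-terminal propeptide, stood at 3.07 CPM in WT and 0.97 to 3.90 in the edited libraries and was not called.

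Of the 5 matrix proteases edgeR called 4 lower in DKO, where 1.89% of all genes were called lower. Of these 4 DESeq2 called Adamts1, did not call Adamts4 or Adamts8 and gave Adamts5 no adjusted p. Adamts1, Adamts4, Adamts5 and Adamts8 belong to a family of secreted metalloproteases, several of which cut the proteoglycans versican and aggrecan. Adamts8 stood at 4.84 CPM in the WT library, 1.61 and 1.29 in Pcgf3KO, 1.54 and 1.05 in Pcgf5KO, then 1.42 and 1.93 in DKO. Every edited library was below WT, and the log2 differences were -1.73 (SE 0.34), -1.87 (SE 0.36) and -1.52 (SE 0.34), with edgeR adjusted p of 0.0341, 0.0286 and 0.0433. These 3 calls were lost when any 1 single-knockout library was left out, and in Pcgf3KO and DKO with DESeq2. The DKO call was also lost with the replicate block (adjusted p = 0.0503 with edgeR).

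Adamts1 stood at 23.3 CPM in the WT library, 10.2 and 11.8 in Pcgf3KO, 11.2 and 12.5 in Pcgf5KO, with 4.53 and 8.95 in DKO. It was called lower in DKO (log2 -1.78, SE 0.29, edgeR adjusted p = 0.013). In Pcgf3KO and Pcgf5KO it differed by -1.08 and -0.98 without a call. The DKO libraries lay below those of the single knockouts, but DKO was not called against either.

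Adamts4 stood at 7.40 CPM in the WT library, 4.03 and 3.58 in Pcgf3KO, 2.49 and 3.32 in Pcgf5KO, then 3.53 and 3.36 in DKO. It was called lower in Pcgf5KO (log2 -1.37, SE 0.26, edgeR adjusted p = 0.0276) and DKO (-1.10, SE 0.24, adjusted p = 0.0441), with no overlap with WT. The 7 libraries held 492 counts for it, and since strand is not marked by the library kit its counts are uncertain. Adamts5 was near the floor, at 1.65 CPM in the WT library, 0.605 and 0.447 in Pcgf3KO, 0.710 and 0.323 in Pcgf5KO, with 0.263 and 0.247 in DKO. It was called lower in DKO (log2 -2.66, SE 0.58, adjusted p = 0.0414), on 29 counts in WT and 5 in each DKO library. The calls of Adamts4 and Adamts5 were lost when any 1 single-knockout library was left out, and that of Adamts4 in DKO also with DESeq2 and with the replicate block (edgeR adjusted p = 0.0638). DESeq2 gave no adjusted p for Adamts5.

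Mmp2, a secreted gelatinase, followed another order of groups. It stood at 35.9 CPM in the WT library, 20.2 and 21.8 in Pcgf3KO, 25.6 and 23.7 in Pcgf5KO, then 29.1 and 33.0 in DKO. All edited libraries were below WT, with DKO the nearest. It was called lower in Pcgf3KO (log2 -0.78, SE 0.13, edgeR adjusted p = 0.0183). It was not called in Pcgf5KO (-0.54, SE 0.13, adjusted p = 0.0682) or DKO (-0.21, SE 0.13, adjusted p = 0.421). DKO was higher than Pcgf3KO by 0.57 (SE 0.11, adjusted p = 0.04). Both calls were lost when any 1 single-knockout library was left out.

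The inhibitors of these proteases were not called in the 7-library fit. Relative to feeder markers Timp1 and Timp2 were called higher in DKO against WT, as were 74.3% of all genes. Timp1 stood at 31.1 CPM in the WT library, 25.0 and 27.2 in Pcgf3KO, 28.8 and 27.7 in Pcgf5KO, with 23.3 and 24.3 in DKO. Timp3 stood at 11.5 CPM in the WT library, 11.4 and 11.7 in Pcgf3KO, 7.75 and 7.68 in Pcgf5KO, then 6.32 and 8.06 in DKO, so that Pcgf5KO and DKO lay below the others. The Timp3 difference in DKO was -0.68 on the log2 scale (SE 0.19, edgeR adjusted p = 0.0995), and 1733 of its exonic bases are shared with Syn3 on the other strand, which had 88 counts. Timp2 ranged from 12.1 to 17.5 CPM in the edited libraries, below 19.4 in WT.

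Of the 6 hyaluronan and proteoglycan genes Has2 and Tnfaip6 were called in the 7-library fit. Has2 encodes a hyaluronan synthase of the plasma membrane. It stood at 12.8 CPM in the WT library, 6.25 and 4.19 in Pcgf3KO, 5.39 and 6.31 in Pcgf5KO, with 3.90 and 2.87 in DKO. All edited libraries were below WT and the DKO libraries were the lowest. Has2 was called lower in Pcgf3KO (log2 -1.29, SE 0.26, edgeR adjusted p = 0.0379) and DKO (-1.92, SE 0.27, adjusted p = 0.00635), and the first of these calls was lost when any 1 single-knockout library was left out.

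Tnfaip6 encodes TSG-6, which binds hyaluronan and modifies it in inflammation. It stood at 3.47 CPM in the WT library, 0.705 and 1.01 in Pcgf3KO, 1.12 and 1.05 in Pcgf5KO, then 1.90 and 1.19 in DKO. It was called lower in Pcgf3KO (log2 -2.02, SE 0.41, edgeR adjusted p = 0.0358). With both WT libraries, which differed from each other (10.3 and 19.6 CPM of the listed genes), the difference was -1.62 (SE 0.42, adjusted p = 0.045). Both calls were lost when any 1 single-knockout library was left out, the 7-library call also with DESeq2 and the 8-library call with either WT library left out.

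Vcan encodes versican, a large proteoglycan that binds hyaluronan. It stood at 13.0 CPM in the WT library, 12.1 and 11 in Pcgf3KO, 12.3 and 11.6 in Pcgf5KO, with 10.4 and 8.11 in DKO, with no call. The small leucine-rich proteoglycans Dcn, Lum and Bgn ranged from 0.148 to 3.48 CPM over the libraries and were not called. Bgn was 3.2 and 3.48 CPM in Pcgf5KO and 1.11 to 2.22 in the other 5 libraries.

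Of the adhesive proteins, fibronectin was lower in Pcgf3KO. Fn1 stood at 1090 CPM in the WT library, 741 and 732 in Pcgf3KO, 996 and 1050 in Pcgf5KO, then 1140 and 974 in DKO. The Pcgf3KO libraries lay below all others, and the DKO libraries lay on either side of WT. The log2 difference of Pcgf3KO from WT was -0.57 (SE 0.10, edgeR adjusted p = 0.0189), and that of DKO from Pcgf3KO was 0.52 (SE 0.08, adjusted p = 0.0181). Both calls were lost when any 1 single-knockout library was left out. In the 8-library fit the WT libraries were at 4590 and 6150 CPM of the listed genes and Pcgf3KO at 4170 and 4140, and Fn1 was not called.

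Tnc encodes tenascin-C, a matricellular protein of embryonic and injured tissue. It stood at 0.512 CPM in the WT library, 0.605 and 1.01 in Pcgf3KO, 2.13 and 2.02 in Pcgf5KO, with 0.211 and 0.198 in DKO. Pcgf5KO was the highest group and DKO the lowest, on 4 counts in each DKO library and 36 and 25 in Pcgf5KO. DKO differed from Pcgf5KO by -3.31 on the log2 scale (SE 0.48, edgeR adjusted p = 0.018), a call lost when any 1 single-knockout library was left out and for which DESeq2 gave no adjusted p. In all 8 libraries Tnc was called higher in Pcgf5KO (1.68, SE 0.40, adjusted p = 0.0258), a call that was lost with DESeq2 and with any 1 WT or Pcgf5KO library left out.

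Of the 5 lysyl oxidases 1, Loxl4, was called in the 7-library fit. Loxl1 was called higher in DKO against WT relative to feeder markers, as were 74.3% of all genes. Loxl4 stood at 13.8 CPM in the WT library, 13.2 and 14.2 in Pcgf3KO, 9.65 and 9.14 in Pcgf5KO, then 4.43 and 6.28 in DKO. Pcgf3KO surrounded WT, Pcgf5KO lay below it and DKO lay lowest. Loxl4 was called lower in DKO against WT (log2 -1.36, SE 0.21, edgeR adjusted p = 0.0103) and against Pcgf3KO (-1.35, SE 0.18, adjusted p = 0.00881), the latter lost with either Pcgf3KO library left out. In all 8 libraries, with WT at 123 and 77.7 CPM of the listed genes, it was called lower in DKO (-1.73, SE 0.23, adjusted p = 0.00106) and Pcgf5KO (-0.93, SE 0.22, adjusted p = 0.0258), the second of which was lost without WT replicate 1 or with either Pcgf5KO library left out. Lox, the founding enzyme of the family, stood at 2.22 CPM in WT and at 0.580 and 0.593 in DKO (log2 -1.91, SE 0.47, adjusted p = 0.0641). Loxl1 ranged from 6.15 to 10.4 CPM over the 7 libraries and Loxl2 from 3.49 to 7.57. Loxl3 had 108 counts in all, shares 535 exonic bases with Htra2 on the other strand and was not called.

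None of the 8 elastic and microfibril genes was called against WT in the 7-library fit. Fbln1, Fbln2 and Mfap2 were called higher in DKO against WT relative to feeder markers, as were 74.3% of all genes. Fbln2 encodes fibulin-2, which binds fibronectin and elastic fibres. It stood at 13.8 CPM in the WT library, 8.77 and 8.72 in Pcgf3KO, 13.2 and 11.2 in Pcgf5KO, with 18.0 and 24.2 in DKO. The DKO libraries lay above all others and the Pcgf3KO libraries below all others. DKO was higher than Pcgf3KO by 1.27 (SE 0.17, edgeR adjusted p = 0.00889) and than Pcgf5KO by 0.79 (SE 0.17, adjusted p = 0.0466) on the log2 scale, calls lost with either Pcgf3KO library left out and when any 1 single-knockout library was left out, respectively. Mfap2, a microfibril glycoprotein, stood at 1.99 CPM in the WT library, 1.41 and 1.01 in Pcgf3KO, 1.78 and 2.26 in Pcgf5KO, then 3.32 and 2.62 in DKO, and its difference of 1.28 between DKO and Pcgf3KO (SE 0.30, adjusted p = 0.0733) was not called. The fibrillin gene Fbn1 stood at 11 CPM in WT and 4.27 to 6.98 in the edited libraries, a log2 difference of -1.0 in Pcgf3KO and DKO and -0.76 in Pcgf5KO with adjusted p of 0.0784, 0.0713 and 0.157. Fbln1 ranged from 43.5 to 55.1 CPM around 51.2 in WT. Fbln5, Fbn2, Mfap5 and Eln ranged from 0.939 to 6.54 CPM over the 7 libraries.

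The fibroblast markers and receptors were not called against WT in the 7-library fit. Relative to feeder markers Thy1 was called higher in DKO against WT, as were 74.3% of all genes. Thy1, a surface protein of fibroblasts and other cells, stood at 19.8 CPM in the WT library, 12.6 and 14.3 in Pcgf3KO, 17.8 and 16.1 in Pcgf5KO, with 22.1 and 33.3 in DKO. DKO lay above and both single knockouts lay below WT. DKO was higher than Pcgf3KO by 1.05 on the log2 scale (SE 0.18, edgeR adjusted p = 0.0265), a call lost when any 1 single-knockout library was left out. Pdgfra and Pdgfrb encode receptors for platelet-derived growth factor that mark mesenchymal cells. Pdgfrb stood at 3.07 CPM in WT, 1.07 to 1.70 in the single knockouts and 2.74 and 3.16 in DKO, and Pdgfra at 1.31 CPM in WT, 0.447 to 0.888 in the single knockouts and 1.0 and 1.04 in DKO.

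Against Pcgf3KO, DKO had 4 members higher (Fbln2, Thy1, Mmp2 and Fn1) and 2 lower (Loxl4 and Pcolce), where 0.734% of all genes were called higher and 1.0% lower. Against Pcgf5KO it had 1 higher (Fbln2) and 2 lower (Tnc and Pcolce), where 0.996% of all genes were called higher and 1.28% lower. Both comparisons share the DKO libraries. Between Pcgf5KO and Pcgf3KO edgeR called 0 members, DESeq2 called 1 and 7 of 40 had an unadjusted edgeR p under 0.05, as had 8.5% of all genes. Of all genes 0.0893% were called higher and 0.0511% lower in that comparison. The DKO libraries were less alike than those of the single knockouts. Over the tested members the median absolute log2 difference between replicates was 0.334 in DKO, 0.158 in Pcgf3KO and 0.176 in Pcgf5KO. Over all genes it was 0.239, 0.108 and 0.104. The counts that follow, with 1 library left out, lack the share of all genes called and are not a result about the members. With either Pcgf3KO library left out, 0 members were called in DKO against Pcgf3KO, with either Pcgf5KO library left out 3 (Fbln2, Loxl4 and Pcolce), and without DKO replicate 1 or 2 there were 17 or 16. In DKO against Pcgf5KO 0 were called when any 1 single-knockout library was left out, and 18 or 17 without DKO replicate 1 or 2. In Pcgf5KO against Pcgf3KO 8 were called with either DKO library left out.

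**Figure D4:**
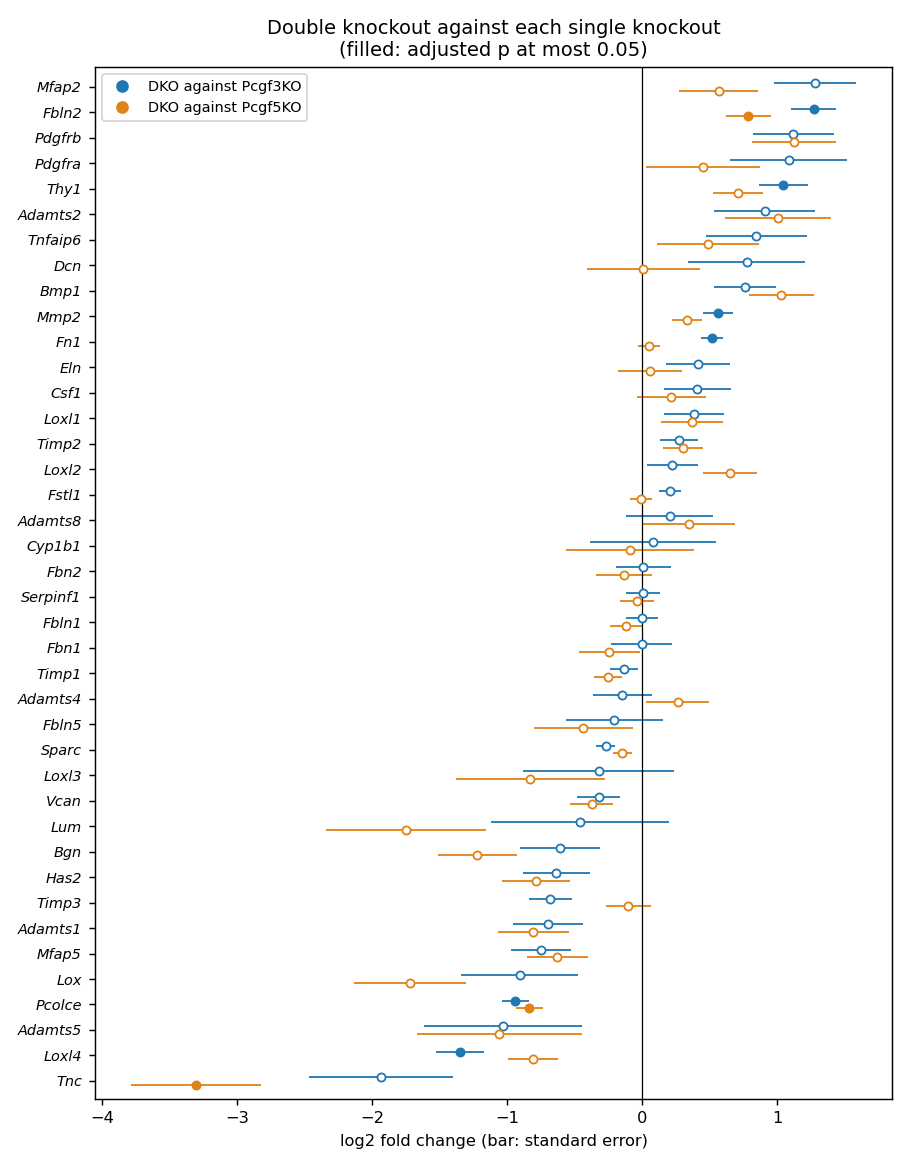
log2 fold change of DKO against Pcgf3KO (blue) and against Pcgf5KO (orange) for the 40 tested members, with standard errors as bars and filled points for an adjusted p of at most 0.05. Fbln2 is higher and Pcolce lower in both, and Serpinf1, at 0.01 and -0.04, lies at 0.

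The change of DKO from WT was also set against the sum of the changes of the single knockouts. It was called above that sum for 9 members and below it for 3, where 1.77% and 2.02% of all genes were. For Csf1 and Serpinf1 each single knockout already stood near the DKO level, so that the sum overshot it. All of these values rest on the single WT library.

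The fit of all 8 libraries tested 11 members. In Pcgf3KO 0 were called higher and 4 lower (Csf1, Bmp1, Cyp1b1 and Tnfaip6), where 3.18% of 2702 genes were called higher and 2.33% lower. In Pcgf5KO 1 was higher (Tnc) and 3 lower (Csf1, Bmp1 and Loxl4), beside 4.33% and 4.29%. In DKO 0 were higher and 4 lower (Csf1, Loxl4, Cyp1b1 and Bmp1), beside 4.4% and 3.7%. With a library left out, the counts below lack the share of all genes called and are not a result about the members. Pcgf3KO had 2 calls without WT replicate 2 or when any 1 single-knockout library was left out. Pcgf5KO had 2 without WT replicate 1 or with either Pcgf5KO library left out and 7 without DKO replicate 2, and DKO had 2 with either WT library left out.

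The rule for these genes asks whether they follow the share of feeder cells as 1 factor. The levels of the feeder markers did not move alike. Against WT edgeR called 0 of 16 tested markers higher in any knockout, and 4 lower in Pcgf3KO, 1 in Pcgf5KO and 6 in DKO. The actin Acta2 stood at 11.1 CPM in the WT library, 5.69 and 4.92 in Pcgf3KO, 7.87 and 8.73 in Pcgf5KO, then 0.685 and 1.04 in DKO. S100a6 stood at 41.8 CPM in the WT library, 71.0 and 74.5 in Pcgf3KO, 40.0 and 43.6 in Pcgf5KO, with 17 and 25.5 in DKO. Tagln stood at 51.2 CPM in the WT library, 32.7 and 37.9 in Pcgf3KO, 38.9 and 41.9 in Pcgf5KO, then 17 and 17.2 in DKO. Col5a1 stood at 33.1 CPM in the WT library, 19.8 and 22 in Pcgf3KO, 25.1 and 27.5 in Pcgf5KO, with 28.7 and 35.1 in DKO. Tagln, S100a6 and Col5a1 gave 64.0% to 80.0% of the summed marker counts, so the sum mostly follows these 3 genes.

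**Figure D5:**
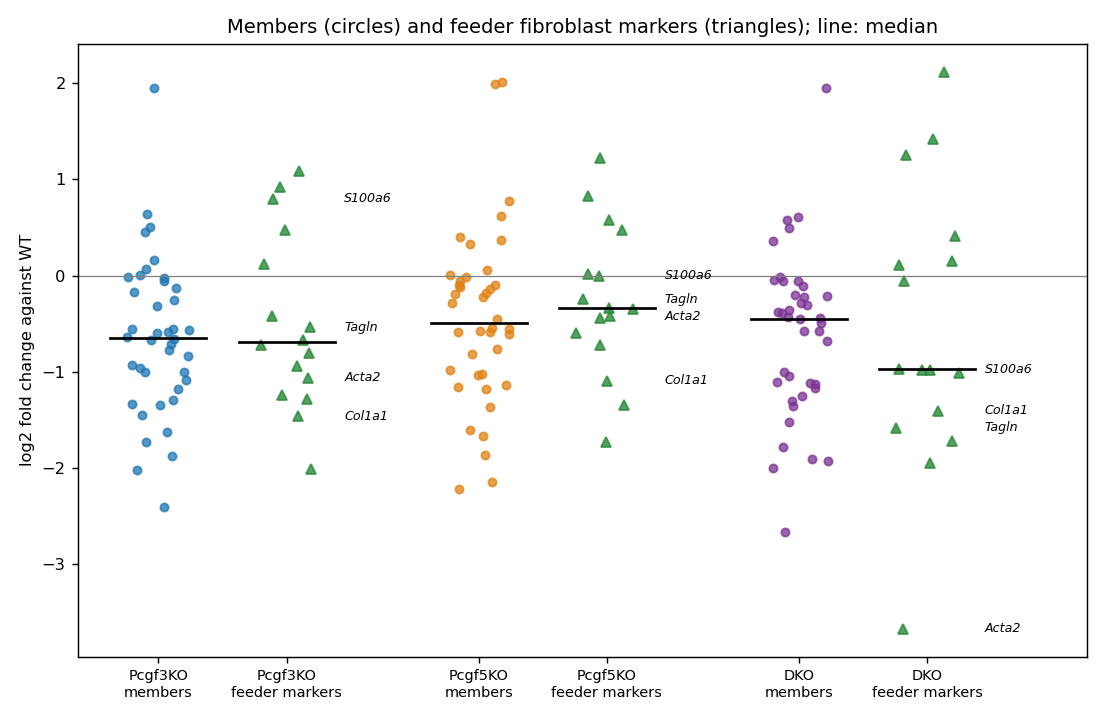
log2 fold change against WT of the 40 tested members (circles) and of 16 tested feeder fibroblast markers (triangles) in each knockout, with the median as a line. In DKO the markers spread from Acta2 at -3.67 to Islr at 2.116, and members lie on both sides of 0 in every knockout.

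Each library was then scaled to its summed feeder marker count in place of its total. This shifted the median of all genes by 0.28 in Pcgf3KO, 0.37 in Pcgf5KO and 0.88 in DKO against WT, by 0.61 in DKO against Pcgf3KO and by 0.51 in DKO against Pcgf5KO (log2), and the counts are to be read against it. Against WT 1 member was called higher and 2 lower in Pcgf3KO, beside 0.938% and 0.211% of all genes. In Pcgf5KO 3 were higher and 3 lower, beside 12% and 0.504%. In DKO 12 were higher and 5 lower, beside 74.3% and 0.434%. DKO had 23 higher and 2 lower against Pcgf3KO, beside 68.2% and 0.191%, and 17 higher and 2 lower against Pcgf5KO, beside 47.9% and 0.166%. Pcgf5KO against Pcgf3KO had 0 and 0, beside 0.0511% and 0.0% of all genes. There 9 of 40 members had an unadjusted edgeR p under 0.05, as had 7.65% of all genes. The next counts, with 1 library in turn left out, are given without the share of all genes called and are not a result about the members. Leaving out Pcgf3KO replicate 1 or 2 gave 1 member in Pcgf3KO against WT, 3 in Pcgf5KO against WT and 16 or 1 in DKO against Pcgf3KO. Leaving out either Pcgf5KO library gave 0 members in both single knockouts against WT and in DKO against Pcgf5KO. Without DKO replicate 1 or 2 there were 16 or 15 in each single knockout against WT and 4 in Pcgf5KO against Pcgf3KO.

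On this scale Serpinf1 was called higher in Pcgf3KO, Pcgf5KO and DKO against WT, by 2.22, 2.36 and 2.81, and Csf1 was called lower, at -2.13, -1.84 and -1.15 on the log2 scale. Bmp1 was called lower in Pcgf3KO (-1.60) and Pcgf5KO (-1.77). Its Pcgf3KO call was lost when any 1 single-knockout library was left out, and its Pcgf5KO call with either Pcgf5KO library left out. In DKO Adamts5 (-1.81), Has2 (-1.04), Adamts1 (-0.95) and Loxl4 (-0.51) were called lower as well. These 4 calls were lost when the collagens were left out of the marker sum, and that of Loxl4 was lost under 9 of 11 alternatives, among them the replicate block, no filter on low counts and any 1 single-knockout library left out. Of the members called higher in DKO, Sparc at 0.67, Fn1 at 0.83, Fstl1 at 0.77, Fbln1 at 0.80, Mmp2 at 0.65, Timp1 at 0.48 and Timp2 at 0.57 lay below the shift of 0.88 of the median gene. Serpinf1, Fbln2 at 1.46, Mfap2 at 1.45, Thy1 at 1.33 and Loxl1 at 1.201 lay above it. Scaled to the sum of Col1a1, Col1a2 and Col3a1 in place of all 20 markers, Serpinf1 differed by 3.36, 2.83 and 3.40 and Csf1 by -0.99, -1.38 and -0.55, the last without a call. On that scale Adamts5 (-1.22), Has2 (-0.46) and Adamts1 (-0.34) in DKO and Bmp1 in Pcgf3KO (-0.46) were not called, and Loxl4 in DKO turned to 0.09. The calls of Serpinf1 and Csf1 in Pcgf3KO and in Pcgf5KO were lost with either Pcgf5KO library left out, and that of Csf1 in Pcgf3KO also with either Pcgf3KO library left out.

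The range of a member over the 7 libraries shows the same spread without a test. The summed feeder markers ranged over 0.999 on the log2 scale. For 19 of 40 members the range was smaller relative to the marker sum than as a level, and the median range was 1.36 relative to the markers and 1.47 as a level. Timp3, Timp1 and Vcan had the narrowest ranges relative to the markers (0.58, 0.58 and 0.70), and Serpinf1, Tnc and Mfap2 the widest (2.81, 2.60 and 2.41). In a principal component analysis of the members' log2 levels the first component held 42.4% and the second 35.7% of the variation, and over all genes the first held 32.6%. The first set the WT library, at 4.47, apart from Pcgf3KO at -1.29 and -1.57, Pcgf5KO at -1.33 and -1.69 and DKO at 0.17 and 1.24. On it 32 members carried the sign of WT and 8 the opposite sign. With 7 libraries 6 components are possible, so these shares are a description.

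Other genes of matrix and its signals were read from lists that hold no member. Of 43 tested other matrix genes 1 was higher and 9 lower in Pcgf3KO, 1 and 6 in Pcgf5KO, then 2 and 6 in DKO against WT, with medians of -0.53, -0.30 and -0.31 (log2). The shares of all genes beside these and the next lists were 1.08% higher and 1.28% lower for Pcgf3KO, then 1.31% and 1.68% for Pcgf5KO and 1.33% and 1.89% for DKO. Thbs1, a matricellular protein that activates TGF-beta, fell by 1.80, 1.75 and 2.46, and Ccn1 fell by 1.47, 1.65 and 1.70. Of 20 tested basement membrane genes 1 was higher and 3 lower in Pcgf3KO and in Pcgf5KO, and 2 higher and 1 lower in DKO. The laminin chain Lama3 rose by 0.79, 0.83 and 1.11. Of 20 tested TGF-beta pathway genes none was higher, and 3, 5 and 3 were lower. Tgfb2, a ligand, was called lower in Pcgf3KO (-2.15) and DKO (-1.82). Of the 4 PDGF genes Pdgfc was higher in Pcgf3KO (0.71) and Pcgf5KO (0.59), and none was called in DKO.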

How the data were processed

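Poly-A RNA libraries of 4 groups were analysed. The authors deposited whole-number counts of reads on each Ensembl gene, in a table for every library (per the file headers). Per the submitters' processing notes the tools were HTSeq 0.6.0, TopHat2 2.0.12 and Cufflinks 2.2.1, with mm10 as the build and no role stated. Annotation, strand setting and filters: not given in the sources used here. 46488 of 47069 identifiers matched a symbol of GENCODE release M21, whose exon lengths were used. Coordinates are those of the tables. Counts were tested with edgeR 4.0.16 in R 4.3.3 (glmQLFit, glmQLFTest, TMM, filterByExpr, group as the only term, all groups in 1 fit, Benjamini-Hochberg over all genes tested). The fit of 7 libraries kept 15669 genes with 99.93% of the counts and left 3 residual degrees of freedom. The fit of 8 libraries over the genes of WT replicate 1 kept 2702 genes and left 4. Genes not listed there were not measured, never 0. A further fit set each library size to the summed count of 20 feeder markers. SE is the log2 fold change divided by the square root of F. Log2 levels for ranges used CPM plus 0.1. DESeq2 1.42.0, other size factors, no filter, a replicate block, other feeder scalings and leaving out each library were alternatives. The fit was tested on simulated data. Named genes were the members called in any comparison and the 3 with the widest and the 3 with the narrowest range relative to feeder markers, given in full, with the other members by range, and up to 4 genes of each other list with the smallest p against WT. The members and lists were chosen with earlier results of these data known. Some genes that the naming rule would name are not reported here.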

Additional observations from a re-analysis of the deposited data

Results flagged for a closer look

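For 12 members the change of DKO from WT differed from the sum of the changes of the single knockouts (edgeR's quasi-likelihood test of the interaction, p adjusted over every gene tested of 0.05 or less). The values, on the log2 scale, all use the single WT library in 7 libraries unless both WT libraries are named. DKO lay above the sum by 2.91 for Bmp1 (-1.11 in DKO, -1.88 and -2.15 in the single knockouts), by 2.62 for Csf1, by 2.51 for Tnfaip6 and by 2.08 for Adamts8, genes that stood below WT in all 6 edited libraries. It lay above the sum by 2.30 for Pdgfrb, by 1.45 for Fbln2, by 1.27 for Thy1, by 1.11 for Mmp2 and by 0.62 for Fn1. It lay below the sum for Serpinf1 (-1.98), Pcolce (-1.34) and Tnc (-3.94). Tnc rests on 4 counts in each DKO library. Leaving the WT library out leaves no such value. Bmp1, Csf1, Tnfaip6, Fn1 and Tnc are also listed in WT replicate 1. With both WT libraries the changes in DKO, Pcgf3KO and Pcgf5KO were -1.01, -1.77 and -2.05 for Bmp1 and -1.92, -2.33 and -2.15 for Csf1. They were -0.77, -1.62 and -1.27 for Tnfaip6, 0.15, -0.37 and 0.09 for Fn1, and -1.615, 0.32 and 1.68 for Tnc. The difference from the sum was not tested with both WT libraries. For the other flagged members the WT side has no replicate check.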

How the results depend on the processing

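Numbers of called members are given here in the order Pcgf3KO, Pcgf5KO and DKO against WT, DKO against Pcgf3KO, DKO against Pcgf5KO, Pcgf5KO against Pcgf3KO. With 7 libraries they were 8, 5, 9, 6, 3 and 0. Without a filter on low counts they were 15, 15, 15, 15, 13 and 1. Beside them 4.34%, 4.8% and 5.79% of all genes were called in Pcgf3KO, Pcgf5KO and DKO against WT. DESeq2 gave 6 in DKO against Pcgf5KO and 1 in Pcgf5KO against Pcgf3KO. Leaving out 1 library gave 2 to 25, 1 to 19, 5 to 22, 0 to 17, 0 to 18 and 0 to 8. With both WT libraries (4, 4 and 4) it gave 2 to 5, 2 to 7 and 2 to 5. Relative to feeder markers (3, 6, 17, 25, 19 and 0) it gave 0 to 16, 0 to 16, 15 to 24, 1 to 26, 0 to 23 and 0 to 4. Also relative to feeder markers, no filter gave 8, 10 and 1 in Pcgf3KO and Pcgf5KO against WT and Pcgf5KO against Pcgf3KO. The mean log2 level of the markers gave 10 in Pcgf3KO against WT and 6 in DKO against Pcgf3KO, and the sum without collagens gave 3 in Pcgf5KO against WT. The sum of Col1a1, Col1a2 and Col3a1, an alternative chosen after seeing the data, gave 22, 17, 9 and 15 in Pcgf3KO and Pcgf5KO against WT, DKO against Pcgf3KO and Pcgf5KO against Pcgf3KO. The share of all genes called with a library left out or under these other feeder scalings is not given here. These counts are therefore not a result about the members. The causes of these shifts were not tested. The replicate block gave 10 members in DKO against Pcgf5KO and 1 in Pcgf5KO against Pcgf3KO, and moved no other count by more than 1.5 times. Same-numbered libraries correlated at -0.0619 to 0.197 in their deviations, so the numbers were not taken to pair them. Of 43 gene results called in the 7- and 8-library fits, none reversed in 461 alternatives, 344 kept their call, 117 lost it, and 14 results kept it throughout. Depth limits the members with few counts per library, among them Postn, Lum, Adamts5, Pdgfra, Loxl3, Tnc, Cyp1b1, Dcn, Lox, Fbln5 and Tnfaip6.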
